A study of Mus musculus with 37 samples.

Results

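The genes described here are 40 named components of protein folding and stress signalling in the endoplasmic reticulum (ER), the compartment in which secreted and membrane proteins are made. They were chosen by their symbols and known functions, with earlier results of these data known. A member was described in an experiment where its counts summed to at least 20 UMIs (unique molecular identifiers, which mark single captured RNA molecules). This held for 39 of the 40 members in whole organoids, out of 15631 genes with as many UMIs. It held for 37 members, out of 10985 genes, in Lgr5-EGFP+ cells and for 39, out of 14373, in the irradiation experiment. Ddit3, which encodes the stress factor CHOP, was not analysed here. Derl3 and Ern1 fell short of the minimum in Lgr5-EGFP+ cells.

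The samples came from organoids grown from jejunal crypts of adult mice, in 3 experiments with vasoactive intestinal peptide (VIP), a neuropeptide whose receptor VPAC1 is found on intestinal epithelium. Whole organoids of C57Bl6/J mice were treated with 100 nM VIP for 72 h (4 mice) or left without VIP (3 of these mice). Lgr5-EGFP+ cells were sorted from organoids of 4 Lgr5-EGFP-IRES-CreERT2 mice, with and without 100 nM VIP for 72 h. In the irradiation experiment, organoids of 4 such reporter mice received 6 Gy or no irradiation and then 100 nM VIP for 48 h or none, which gave 4 groups of 4 sorted samples. Each mouse number stands for 1 organoid line, so that treated and untreated samples of a mouse were compared within that line, and mouse 4 of the whole organoid experiment had no untreated partner and did not enter the fold changes. EGFP is driven from the Lgr5 locus in this reporter, so the sort selected cells by reporter signal.

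Proteins that enter the ER are threaded through the Sec61 channel, cleaved by signal peptidase and folded by chaperones such as BiP (Hspa5), by lectins that read N-glycans and by disulfide isomerases. Proteins that fail to fold are sent back to the cytosol and degraded. An excess of unfolded protein activates the sensors IRE1 (Ern1, and Ern2 in mucous epithelia), PERK (Eif2ak3) and ATF6, which act through the factors XBP1, ATF4 and cleaved ATF6 and raise chaperones and degradation factors. Goblet and Paneth cells of the intestine secrete large amounts of mucin and antimicrobial peptides and are known to rely on this machinery.

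Whole organoid samples held 3722716 to 6330404 UMIs, Lgr5-EGFP+ samples 575242 to 1104126 and irradiation samples 1075715 to 1876729. The members together made up 0.708% to 0.984% of the UMIs of a sample. Stem cell markers summed to 4238 to 6711 CPM (UMI counts scaled to a common library total) in the first set of sorted cells and to 1951 to 4560 CPM in whole organoids, while Paneth markers reached 15143 CPM in those sorted cells. In the sorted cells of the irradiation experiment stem cell markers summed to 2402 to 5654 CPM, overlapping the whole organoids, and Paneth markers reached 28259 CPM, highest in irradiated cells without VIP. In all experiments the 11 markers of non-epithelial cells summed to at most 10.03 CPM in any sample. One library stood apart. In whole organoids, most cultures had 2 technical replicate libraries. The second library of VIP-treated mouse 3 differed from the first by a root mean square of 0.628 on the log2 CPM scale over 7049 genes, against 0.178 to 0.279 between the paired libraries of the other 5 cultures. Among the members, 17 differed by more than 0.5 on that scale between the libraries of VIP-treated mouse 3, against 0 to 4 in the others. Counts of called members and further genes in whole organoids are therefore given with and without this library, while role medians, marker values and the values of Agr2, Ero1l and Creb3l1 are given with it.

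The promoters of a few members show the letters through which ER stress factors are known to act. RefSeq promoter sequences (GRCm38.p6, from 250 bases before to 50 bases after the annotated start) were matched by symbol for 31 of the 40 members. Motifs were searched on both strands. ERSE is CCAAT, any 9 bases and CCACG, ERSE-II is ATTGG, any base and CCACG, UPRE is TGACGTGG or TGACGTGA, and CARE, the element read by ATF4 and its partners, is TGATG, any base and AA. The core CCACG, which is also part of both ERSE forms, is counted alone as well, and TGACGTGG holds its reverse complement. The promoters printed are those of Hspa5, the archetypal ERSE gene, of Herpud1 and Dnajc10, on which the results below turn, and of Kdelr3 and Creld2, 2 of the members that were called without the second library of VIP-treated mouse 3. Capitals mark the bases fixed by any of these motifs.
Hspa5, chr2:34771840-34772139, plus strand: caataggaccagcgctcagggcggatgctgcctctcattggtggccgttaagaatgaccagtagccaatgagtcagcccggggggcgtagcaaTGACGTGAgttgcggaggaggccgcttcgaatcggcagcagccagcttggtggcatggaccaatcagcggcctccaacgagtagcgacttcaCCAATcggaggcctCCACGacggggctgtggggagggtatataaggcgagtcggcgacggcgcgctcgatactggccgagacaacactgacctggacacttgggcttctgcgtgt
Herpud1, chr8:94386179-94386478, plus strand: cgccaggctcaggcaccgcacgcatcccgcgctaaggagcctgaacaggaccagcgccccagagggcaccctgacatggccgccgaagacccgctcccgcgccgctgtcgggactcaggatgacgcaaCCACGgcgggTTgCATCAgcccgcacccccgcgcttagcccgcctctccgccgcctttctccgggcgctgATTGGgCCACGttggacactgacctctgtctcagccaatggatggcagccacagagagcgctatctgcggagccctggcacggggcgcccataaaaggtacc
Kdelr3, chr15:79516158-79516457, plus strand: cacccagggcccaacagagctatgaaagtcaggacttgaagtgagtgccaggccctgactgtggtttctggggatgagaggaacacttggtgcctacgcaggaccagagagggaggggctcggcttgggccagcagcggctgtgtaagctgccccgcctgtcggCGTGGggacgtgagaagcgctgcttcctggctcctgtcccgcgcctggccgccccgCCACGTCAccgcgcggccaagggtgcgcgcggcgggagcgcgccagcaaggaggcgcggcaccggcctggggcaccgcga
Creld2, chr15:88819396-88819695, plus strand: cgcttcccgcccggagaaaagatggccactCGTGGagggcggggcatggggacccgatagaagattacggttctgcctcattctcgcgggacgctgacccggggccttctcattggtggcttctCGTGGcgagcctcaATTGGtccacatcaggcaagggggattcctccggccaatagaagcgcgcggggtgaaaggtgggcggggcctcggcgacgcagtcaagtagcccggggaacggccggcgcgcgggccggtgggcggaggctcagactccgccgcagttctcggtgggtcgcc
Dnajc10, chr2:80315216-80315515, plus strand: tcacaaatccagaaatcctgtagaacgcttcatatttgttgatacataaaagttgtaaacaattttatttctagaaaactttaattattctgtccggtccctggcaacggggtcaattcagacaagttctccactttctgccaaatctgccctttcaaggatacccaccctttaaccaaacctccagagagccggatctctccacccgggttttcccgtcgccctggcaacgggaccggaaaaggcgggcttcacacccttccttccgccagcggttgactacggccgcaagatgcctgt
The Hspa5 window held 1 ERSE, whose first base lay at −65 from the start site, and 1 UPRE. The Herpud1 window held 1 ERSE-II and 1 CARE, and the Dnajc10 window held none of the motifs. ERSE was found in 9 of the 31 matched member promoters (29.0%, namely Calr, Canx, Creld2, Derl3, Dnajc3, Hsp90b1, Hspa5, Pdia6 and Syvn1) and in 39 of all 32851 promoters (0.119%). ERSE-II was found in 2 member promoters (Dnajb11 and Herpud1) and in 0.0365% of all. TGACGTGG was found in Kdelr3 and in 0.676% of all promoters, TGACGTGA in Hspa5 and in 0.441% of all. CARE was found in Herpud1 and Trib3 and in 3.97% of all, and CCACG in 24 of the 31 and in 32.8% of all. These are matches of letters and not measured binding sites.

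In whole organoids, VIP raised 1 member, the reductase and co-chaperone Dnajc10, by 45.3%. All 10 chaperones had a log2 fold change above 0, from 0.06 to 0.54, with a median of 0.16, but the other 9 did not pass the test. The unfolded protein response factor Xbp1 had a log2 fold change of 0.03 and Atf4, the factor of the integrated stress response, of −0.28, and neither passed the test. Fold changes, standard errors and p-values come from edgeR's quasi-likelihood test with the mouse as a block, adjusted over all genes tested by the Benjamini-Hochberg method, and a gene was called at an adjusted p of at most 0.05. Of the 39 members tested, 1 was called (2.56%), against 614 of all 12727 genes tested (4.82%), of which 474 were higher (3.72%). Before adjustment, p was under 0.05 for 8 members (20.5%) and for 16.4% of all genes. The members' median log2 fold change was 0.09, with 27 above and 12 below 0, against a median of −0.00407 over all genes. Within mice 1, 2 and 3, the members above 0 were 28, 30 and 19 of the 39. In mouse 3, with the library that stood apart included, the chaperones Hyou1, Dnajb9, Sdf2l1 and Manf were lower with VIP.

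Dnajc10 stood at 46.0, 43.0 and 31.6 CPM in untreated mice 1, 2 and 3 and at 59.7, 64.5, 50.8 and 52.8 CPM in VIP-treated mice 1 to 4. Every treated sample lay above every untreated one. The log2 fold change was 0.54 ± 0.11 (SE, 3 mice, higher in 3 of 3, adjusted p = 0.00970). The call did not hold with DESeq2 (adjusted p = 0.140), without the mouse block (0.325) or without mouse 2 (0.0694). Edem1, a lectin that hands misfolded glycoproteins to degradation, stood at 55.6, 50.1 and 73.8 CPM without VIP and at 74.8, 74.5, 81.0 and 77.2 CPM with VIP. Its groups did not overlap either, but the log2 fold change of 0.38 ± 0.11 was not called (adjusted p = 0.0751). Kdelr3, a receptor that returns escaped ER proteins from the Golgi, stood at 6.59, 6.54 and 12.8 CPM without VIP and at 12.9, 13.4, 14.3 and 17.4 CPM with VIP. Untreated mouse 3 lay just under the lowest treated sample, and the log2 fold change of 0.70 ± 0.21 was not called (adjusted p = 0.0883).

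Hspa5, the main ER chaperone, stood at 737, 525 and 854 CPM without VIP and at 793, 761, 862 and 786 CPM with VIP. The groups overlapped, although each treated sample exceeded its untreated partner, and the log2 fold change was 0.22 ± 0.10 (95% interval −0.01 to 0.44, adjusted p = 0.319). Atf4 stood at 166, 238 and 129 CPM without VIP and at 134, 148, 144 and 127 CPM with VIP. It was lower with VIP in mice 1 and 2 and higher in mouse 3, and the log2 fold change was −0.28 ± 0.13 (adjusted p = 0.301). Xbp1 stood at 388, 329 and 401 CPM without VIP and at 378, 346, 414 and 417 CPM with VIP, with a log2 fold change of 0.03 ± 0.08 (95% interval −0.16 to 0.21, adjusted p = 0.921). For Xbp1 the interval was narrow, but these counts give RNA amounts. The activity of XBP1, ATF4 and ATF6 was not measured here or in the sorted cells. Over all members, 27 of the 39 intervals lay within 0.5 on either side of 0.

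Leaving out the second library of VIP-treated mouse 3 raised the number of members called. Atf4 read 98.9 CPM in the first and 211 CPM in the second library of that culture (scaled by library size), beside 121 CPM in untreated mouse 3. Hspa5 read 1008 and 598 CPM in the same libraries, beside 805 CPM. Without the second library, 6 of the 39 members were called, against 1261 of 12684 genes (9.94%). Dnajc10 (0.55), Edem1 (0.46), Creld2 (0.40), which encodes an ER disulfide isomerase-like protein, Hspa5 (0.31) and Kdelr3 (0.83) were higher on the log2 scale. Atf4 was lower (−0.45 ± 0.09, adjusted p = 0.00735), against −0.28 with the library. Without mouse 3 altogether, 9 members were called, 7 higher and 2 lower, against 12.8% of all genes, and that fit rests on mice 1 and 2. The members called beside the 6 were Dnajb9, Sdf2l1 and Herpud1, the last of these lower.

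**Figure D1:**
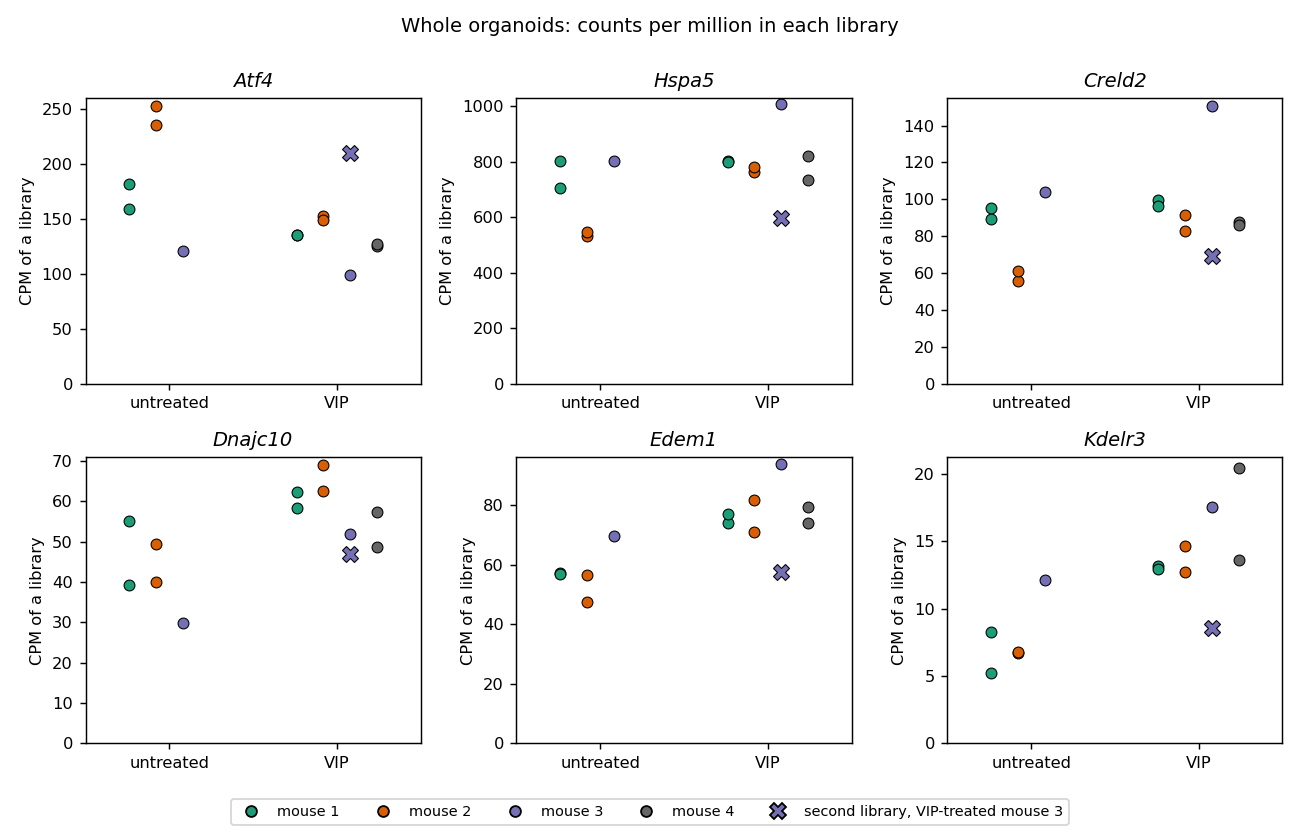
CPM (vertical axis, scaled by library size, from 0) of 6 members in each library of whole organoids, untreated (left) and VIP-treated (right), 1 point a library, coloured by mouse. The cross marks the second library of VIP-treated mouse 3, which lies at 211 CPM for Atf4, above the other VIP-treated libraries, and at 598 CPM for Hspa5, below them.

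By role, the 7 tested sensors and factors had a median log2 fold change of −0.12 in whole organoids, from −0.28 (Atf4) to 0.30 for Ern2, the sensor of mucous epithelia. The 7 lectins and isomerases ranged from −0.12 for Canx to 0.22 for Calr, the calnexin and calreticulin pair that hold monoglucosylated proteins. The 7 translocation genes lay closest together, between −0.07 and 0.14. The 6 degradation genes ranged from −0.26 for Herpud1 to 0.74 for Derl3, which rested on 2, 1 and 11 UMIs without and 12, 4 and 16 UMIs with VIP in mice 1, 2 and 3. Markers of goblet cells moved in the same experiment. All 8 were detected, their sum was 4895 to 6515 CPM without and 7035 to 8601 CPM with VIP, and 6 of the 8 were called higher. The list of dissociation and heat shock genes had 4 of 8 tested genes called higher, with sums of 1051 to 1363 CPM without and 962 to 1242 CPM with VIP. Paneth markers summed to 11636 to 22437 CPM without and 12988 to 20858 CPM with VIP. Their sum was higher with VIP in mice 1 and 2 and lower in mouse 3. The part of these lists in the members' values was not tested.

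Of 150 further pathway genes tested in whole organoids, 7 were called (4.67%), against 4.82% of all genes, and their median log2 fold change was 0.00993. The 28 tested targets of ATF4 include enzymes of serine, one-carbon and asparagine metabolism and tRNA synthetases. Of these targets, 4 fell (14.3%) and none rose, and 25 had a log2 fold change below 0, with a median of −0.23. Atf5, a related stress factor, stood at 42.3, 70.3 and 40.3 CPM without VIP and at 24.6, 26.1, 31.2 and 24.1 CPM with VIP. Its groups did not overlap (log2 fold change −0.88 ± 0.17, adjusted p = 0.00601). Mthfd2, Psat1 and Asns fell by 0.65, 0.54 and 0.48 on the log2 scale. Without the second library of VIP-treated mouse 3, 13 of the 28 fell, among them Chac1 (−0.84) and Phgdh (−0.53), and 1 rose, Wars (0.34), the tryptophanyl-tRNA synthetase, where 9.94% of all genes were called. In the sorted cells none of this list was called with VIP: 15 of 20 tested lay below 0 in the 72 h experiment (median −0.12), 16 of 24 without irradiation (median −0.11) and 19 of 24 after it (median −0.08).

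Of the 28 tested other folding genes, 2 (7.14%) rose with VIP in whole organoids, near the share of all genes, Agr2 (0.73 ± 0.08, adjusted p = 1.62e-04), the isomerase needed for mucin folding, and Ero1l (0.65 ± 0.13, adjusted p = 0.0103), the oxidase that recharges disulfide isomerases. Agr2 stood at 455, 385 and 732 CPM without VIP and at 760, 677, 1138 and 814 CPM with VIP. The groups overlapped, since untreated mouse 3 exceeded treated mouse 2, but each treated sample exceeded its partner. Creb3l1, a membrane-bound factor of secretory cells, was the 1 of 17 other regulators (5.88%) that rose (0.64 ± 0.10, adjusted p = 0.00249). None of the 27 other translocation and N-glycosylation genes, 21 other degradation genes and 29 transport genes was called. Without the second library of VIP-treated mouse 3, 1 gene of each of these 3 lists, 3 other folding genes and 1 other regulator were called higher.

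In Lgr5-EGFP+ cells treated for 72 h, none of the 31 members tested was called by edgeR or by DESeq2, against 6 of 6778 genes (0.0885%) by edgeR. An unadjusted p under 0.05 was reached by 3 members (9.68%), against 5.5% of all genes. The members lay mostly below 0, 25 of 31, with a median log2 fold change of −0.10 against −0.00152 over all genes, and 8 of 9 tested chaperones were below 0. Herpud1, a membrane protein of the degradation complex, had the smallest p. It stood at 122, 108, 98.8 and 95.1 CPM in untreated mice 1 to 4 and at 62.5, 82.5, 96.2 and 72.5 CPM with VIP. It was lower in 4 of 4 mice with overlapping groups (−0.46 ± 0.18, adjusted p = 0.884). Kdelr2, the sister receptor of Kdelr3, stood at 138, 177, 150 and 161 CPM without and at 169, 174, 217 and 253 CPM with VIP. It was higher in 3 of 4 mice (0.36 ± 0.15, adjusted p = 0.884).

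Spcs2, a signal peptidase subunit, had a log2 fold change of −0.33 ± 0.14 in these cells and was lower in 4 of 4 mice (adjusted p = 0.884). It ranged from 281 to 325 CPM with VIP and from 317 to 431 CPM without, so that the groups overlapped. Xbp1 stood at 212, 202, 217 and 258 CPM without and at 172, 170, 223 and 217 CPM with VIP (−0.18 ± 0.14, adjusted p = 0.936). Hspa5 stood at 442, 510, 524 and 530 CPM without and at 435, 492, 414 and 461 CPM with VIP, lower in 4 of 4 mice (−0.15 ± 0.13, adjusted p = 0.948). Atf4 had −0.18 ± 0.16 (adjusted p = 0.951) and was higher with VIP in mouse 2 only. For none of these 3 did the groups separate. The 95% intervals of 20 of the 31 members lay within 0.5 on either side of 0, and none of the 118 further pathway genes tested was called. Goblet markers summed to 3331 to 6996 CPM without and 2426 to 4858 CPM with VIP, and 1 of 6 tested was called lower. Their part was not tested.

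The difference between the VIP effects in Lgr5-EGFP+ cells and in whole organoids was tested as an interaction over both experiments, which differ in mice and in preparation as well as in compartment. Of 36 members, none was called by either tool, against 15 of 10194 genes (0.147%) by edgeR. For 4 members (11.1%) the unadjusted p was under 0.05, against 6.24% of all genes. The median of the members was −0.22, with 28 of 36 and all 10 chaperones below 0, where a negative value is a lower VIP effect in the sort than in whole organoids. The smallest p was that of Kdelr3 (−1.63 ± 0.58, adjusted p = 0.578), followed by Dnajb11 (−0.46 ± 0.19, adjusted p = 0.688), a co-chaperone of BiP, and Ern2 (−0.81 ± 0.36, adjusted p = 0.754). Hspa5 had −0.37 ± 0.18 (adjusted p = 0.793), Xbp1 −0.21 ± 0.16 (adjusted p = 0.907) and Atf4 0.11 ± 0.22 (adjusted p = 0.972). Only 8 of the 36 intervals lay within 0.5 of 0, so that for most members a difference of that size between compartments was not excluded. Of 8 goblet markers, 3 were called lower in the same interaction, and their part was not tested. Hspa5, Dnajb11, Pdia6 and Canx had VIP differences of opposite sign in every mouse of the 2 experiments, 4 of the 31 members tested in both (12.9%) against 1.83% of all genes. The first 3 were higher in whole organoids and lower in the 72 h sorted cells, and Canx was the reverse. Some of these log2 CPM differences lay near 0. In whole organoid mouse 3 they were 0.0136 (Hspa5), 0.00256 (Dnajb11) and 0.0118 (Pdia6), with the library that stood apart included. Canx had 0.00337 in sorted mouse 2. In the non-irradiated sorted cells of the irradiation experiment, mean CPM with VIP rose for Hspa5 (from 625 to 723) and Dnajb11 (from 180 to 193). It also rose for Canx (from 166 to 169) and fell for Pdia6 (from 561 to 545).

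**Figure D2:**
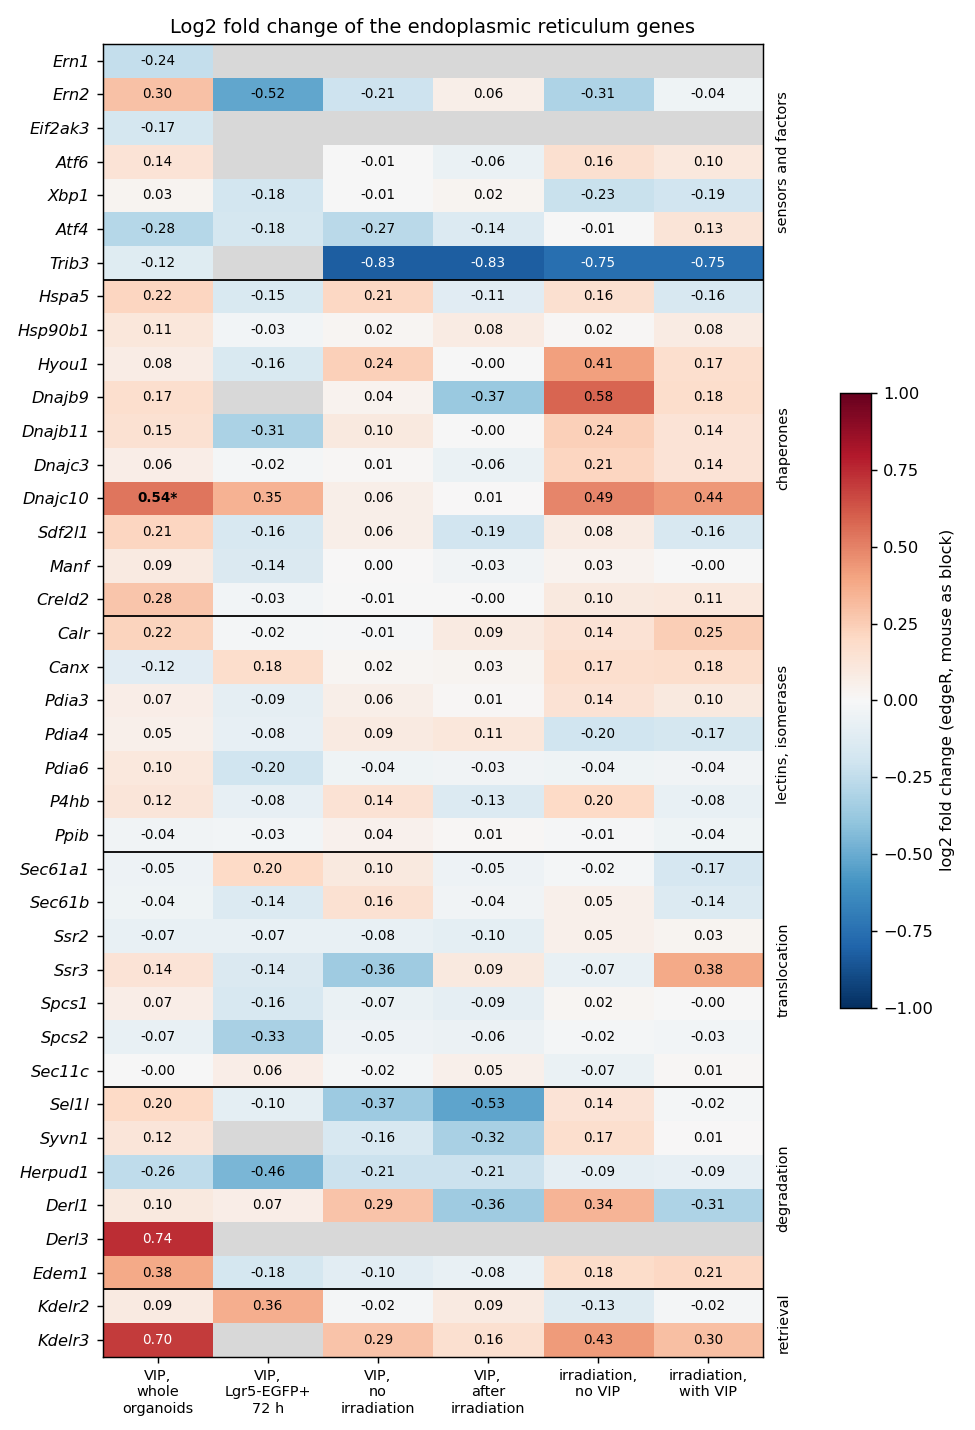
Log2 fold change (colour and printed value) of 39 members in rows, grouped by role, in 6 comparisons in columns. Grey cells were not tested because of low counts, and the asterisk marks the 1 value with an adjusted p of at most 0.05, Dnajc10 in whole organoids.

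In the irradiation experiment, VIP was first compared with no treatment in cells that were not irradiated. None of 36 members was called by either tool, against 74 of 9976 genes (0.742%) by edgeR. With p unadjusted, 6 members (16.7%) were under 0.05, against 12.4% of all genes. The median was −0.000775, with 18 members above and 18 below 0. Hspa5 had the smallest p. It stood at 568, 632, 625 and 676 CPM without VIP and at 684, 780, 651 and 778 CPM with VIP. It was higher in 4 of 4 mice with overlapping groups (0.21 ± 0.07, 95% interval 0.07 to 0.35, adjusted p = 0.171). Atf4 stood at 139, 131, 143 and 145 CPM without and at 117, 118, 110 and 120 CPM with VIP. Every treated sample lay below every untreated one, and the log2 fold change of −0.27 ± 0.09 was not called (adjusted p = 0.173).

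Derl1, a channel component through which proteins leave the ER for degradation, stood at 52.0, 58.2, 64.5 and 52.0 CPM without VIP and at 69.5, 67.0, 66.8 and 73.9 CPM with VIP, in cells that were not irradiated. The groups did not overlap (0.29 ± 0.12, higher in 4 of 4 mice, adjusted p = 0.292). Xbp1 had −0.01 ± 0.08 (adjusted p = 0.984). Trib3, a pseudokinase induced through ATF4, had the lowest value, −0.83 ± 0.39 (adjusted p = 0.385), on 6 to 19 UMIs a sample. Of the further genes, Creb3l1 (0.61 ± 0.14, adjusted p = 0.0302) and the cargo receptor Tmed10 (0.37 ± 0.09, adjusted p = 0.0478) rose. Creb3l1 stood at 81.5, 56.3, 44.1 and 55.2 CPM without and at 79.5, 102, 72.7 and 104 CPM with VIP, higher in mice 2, 3 and 4 only.

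After irradiation, VIP was compared with no VIP in the same way. None of 36 members was called by either tool, against 22 of 9976 genes (0.221%) by edgeR. Only 2 members (5.56%) had an unadjusted p under 0.05, against 5.75% of all genes. The median was −0.04, with 23 of 36 members and all 5 tested degradation genes below 0. Derl1 stood at 71.4, 68.3, 66.8 and 80.0 CPM without VIP and at 50.1, 62.1, 63.0 and 50.2 CPM with VIP. The groups did not overlap, with treated samples the lower (−0.36 ± 0.12, adjusted p = 0.461). Herpud1 had −0.21 ± 0.10 (adjusted p = 0.832) and the BiP cofactor Sdf2l1 −0.19 ± 0.09 (adjusted p = 0.876), each lower in 4 of 4 mice. Hspa5 had −0.11 ± 0.07 (adjusted p = 0.958), Atf4 −0.14 ± 0.09 (adjusted p = 0.961) and Xbp1 0.02 ± 0.08 (adjusted p = 0.993). None of the 138 further genes was called. All 9 Paneth markers had values below 0 with VIP both without and after irradiation, with none called, and 1 of 8 goblet markers was called lower after irradiation. Their part was not tested.

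Derl1 and Hspa5 gave the smallest p in the interaction of VIP and irradiation, the VIP effect after irradiation minus that without. For Derl1 the difference was −0.64 ± 0.16 on the log2 scale (95% interval −0.98 to −0.31, unadjusted p = 6.05e-04 from edgeR), and it was not called over all genes (adjusted p = 0.615). For Hspa5 it was −0.32 ± 0.10 (adjusted p = 0.678) and for the disulfide isomerase P4hb −0.28 ± 0.12 (adjusted p = 0.717). Atf4 had 0.13 ± 0.13 (adjusted p = 0.924) and Xbp1 0.03 ± 0.11 (adjusted p = 0.984). None of the 36 members and 0 of 9976 genes (0%) were called by edgeR or DESeq2. The unadjusted p was under 0.05 for 4 members (11.1%), against 6.36% of all genes. Derl1 was the 1 of 36 members (2.78%) whose VIP differences had opposite signs without and with irradiation in every mouse, a pattern shown by 84 of 9976 genes (0.842%).

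**Figure D3:**
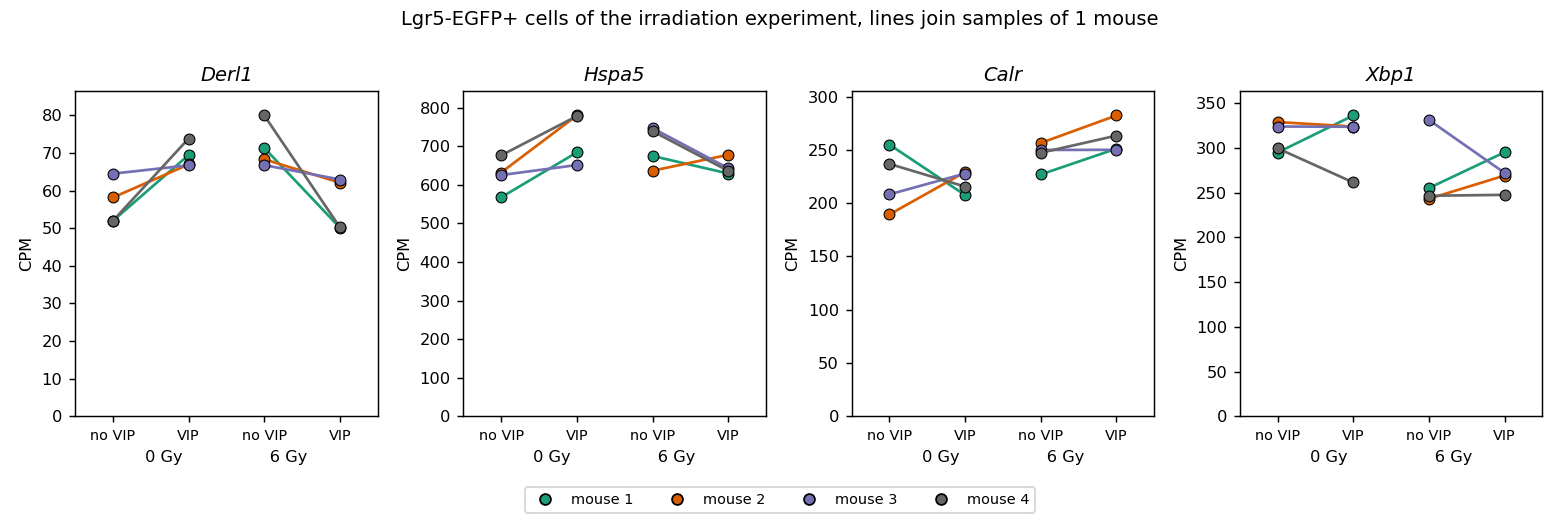
CPM (vertical axis, from 0) of Derl1, Hspa5, Calr and Xbp1 in the 16 sorted samples of the irradiation experiment, without and with 6 Gy and without and with VIP. Lines join the samples of 1 mouse. Derl1 lies higher with VIP in all 4 mice without irradiation and lower in all 4 after 6 Gy.

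Irradiation alone was compared with no irradiation in cells without VIP, which shares its 2 groups with the comparisons of VIP above. None of 36 members was called by either tool, against 445 of 9976 genes (4.46%) by edgeR. Among the members, 9 (25%) had an unadjusted p under 0.05, against 16.7% of all genes. The median was 0.07, with 23 members and all 10 chaperones above 0, from 0.02 to 0.58. Within mice 1, 2, 3 and 4, the members above 0 were 20, 19, 19 and 28 of the 36. Derl1 had 0.34 ± 0.12 (adjusted p = 0.108) and did not overlap between the groups, as its values above show. Xbp1 stood at 295, 329, 324 and 299 CPM without and at 255, 243, 331 and 246 CPM after irradiation. It was lower in mice 1, 2 and 4 and higher in mouse 3 (−0.23 ± 0.08, adjusted p = 0.122). Pdia4, an isomerase of the BiP complex, had −0.20 ± 0.07 and was lower in 4 of 4 mice (adjusted p = 0.137). Hspa5 had 0.16 ± 0.07 (adjusted p = 0.224) and Atf4 −0.01 ± 0.09 (adjusted p = 0.986).

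Among the further genes, 4 rose after irradiation without VIP, where 445 of all 9976 genes tested (4.46%) were called. They were Sesn2 (1.57 ± 0.19, adjusted p = 1.10e-05), Gdf15 (0.82) and Nupr1 (0.47), which are targets of ATF4 and, for Sesn2 and Gdf15, also well-known targets of p53, and Creb3l3 (1.19). Sesn2 stood at 17.6, 14.4, 18.3 and 9.98 CPM without and at 33.7, 59.3, 40.6 and 49.4 CPM after irradiation. The groups did not overlap. Of the ATF4 targets, 3 of 24 were called and the median of the list was 0.02.

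With VIP present, irradiation again called none of 36 members by either tool, against 776 of 9976 genes (7.78%) by edgeR. There were 6 members (16.7%) with an unadjusted p under 0.05, against 21.7% of all genes. The median was 0.00257, with 18 members on each side of 0. Calr stood at 208, 229, 228 and 216 CPM without and at 251, 282, 250 and 263 CPM after irradiation. Every irradiated sample lay above every other one (0.25 ± 0.08, adjusted p = 0.0702), and in a fit of these 2 groups alone Calr was called (0.26, adjusted p = 0.0287). Derl1 had −0.31 ± 0.12 (adjusted p = 0.108), and Ssr3, a subunit of the translocon-associated complex, had 0.38 ± 0.15 (adjusted p = 0.126). Xbp1 had −0.19 ± 0.08 (adjusted p = 0.149) and Hspa5 −0.16 ± 0.07 (adjusted p = 0.179), both lower in 4 of 4 mice, and Atf4 had 0.13 ± 0.09 (adjusted p = 0.457).

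Of the 138 further genes, 5 rose and 6 fell with irradiation in VIP-treated cells, near the share of all genes called (776 of 9976, 7.78%). Sesn2 (1.66), Gdf15 (1.30) and Nupr1 (0.51) rose, while Asns fell by 0.30. Uggt1, the glucosyltransferase that tags unfinished glycoproteins for calnexin, rose by 0.88 and Srp14, of the signal recognition particle, by 0.32. Tmed10 fell by 0.38, Surf4, a cargo receptor, by 0.28, Fkbp2 by 0.26, Txndc5 by 0.27 and Creb3l1 by 0.49.

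Herpud1 ran through all VIP comparisons in one direction, a pattern noticed after its values were seen. It was lower with VIP in each of 15 within-mouse differences over the 3 experiments, from −0.93 to −0.04 on the log2 CPM scale, with a median of −0.21. Each line of the irradiation experiment entered both without and after irradiation, so that the 15 are not all separate lines. Herpud1 was called in none of these comparisons, with adjusted p of 0.158 in whole organoids, 0.884 in Lgr5-EGFP+ cells, 0.369 without and 0.832 with irradiation. It was the 1 of 31 members tested in all of them (3.23%) that kept its direction throughout, against 16 of 6730 genes (0.238%). Without irradiation it stood at 150, 146, 174 and 146 CPM without VIP and at 132, 137, 124 and 139 CPM with VIP, with no overlap, and after irradiation at 156, 114, 148 and 167 CPM without and at 144, 104, 127 and 126 CPM with VIP. In whole organoids it stood at 161, 159 and 215 CPM without and at 141, 122, 186 and 151 CPM with VIP. Ssr2, of the translocon-associated complex, was lower in 14 of the 15 differences, but its median was only −0.06, and Atf4 in 12, with a median of −0.24. Herpud1 lies on chromosome 8 (94386438 to 94395377, plus strand, GRCm38, GENCODE M21) and overlaps the antisense gene Gm15890. The sources used here do not state whether counting used strand, so that reads of the pair may not be told apart. Kdelr3 (chromosome 15, 79516411 to 79527739, plus strand) overlaps Ddx17 on the opposite strand in the same way. Dnajc10 (chromosome 2, 80315466 to 80354043), Derl1 (chromosome 15, 57869502 to 57892448), Atf4 (chromosome 15, 80255184 to 80257541) and Hspa5 (chromosome 2, 34771970 to 34777547) overlap no other gene there.

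**Figure D4:**
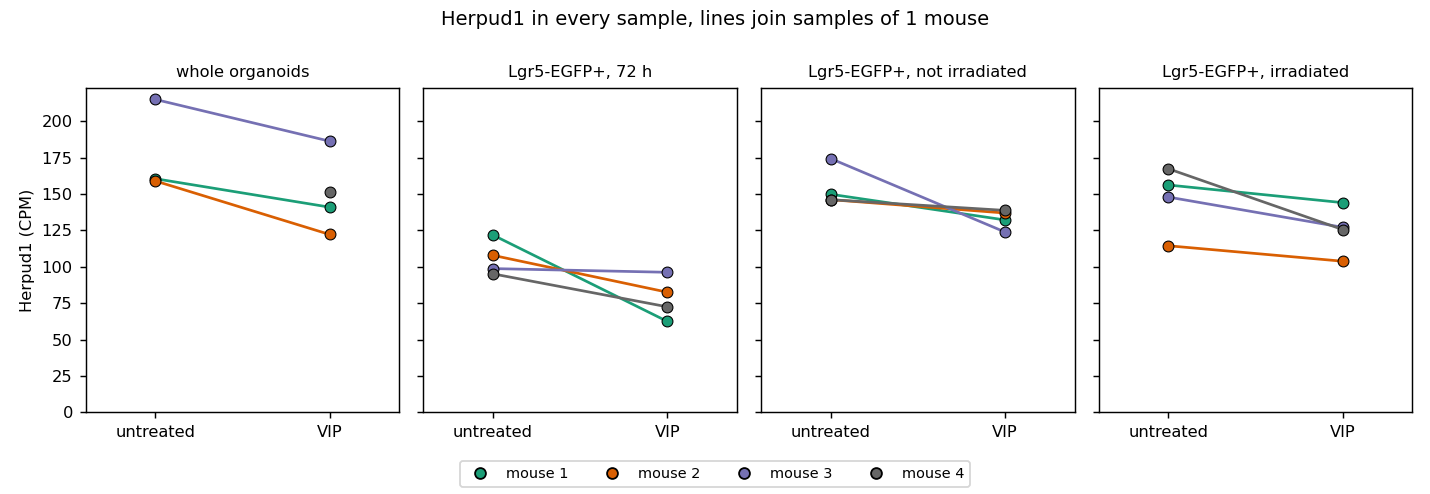
Herpud1 in CPM (vertical axis, from 0) without and with VIP in 4 settings, with lines joining samples of 1 mouse. The line falls in each of the 15 pairs, and the single point without a line is VIP-treated mouse 4 of the whole organoids.

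Summed over the members, the log2 ratio of the ER genes' CPM within a mouse with and without VIP was −0.06 to 0.18 in whole organoids, −0.17 to −0.04 in Lgr5-EGFP+ cells, −0.02 to 0.05 without irradiation and −0.11 to 0.02 after it. For irradiation it was −0.000207 to 0.11 without VIP and −0.04 to 0.05 with VIP. Over the same mice, summed goblet markers moved by 0.25 to 1.01 and summed Paneth markers by 0.33 to 1.5 with irradiation in cells without VIP, and 9 of 9 Paneth markers were called higher there. With irradiation in VIP-treated cells the Paneth sums moved by 0.68 to 0.78, and 9 of 9 were again called higher. In bulk samples, fewer cells of a type and less RNA per cell cannot be told apart, and the sums are led by the few most abundant members. The part of these cell types in the members' values was not tested.

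**Figure D5:**
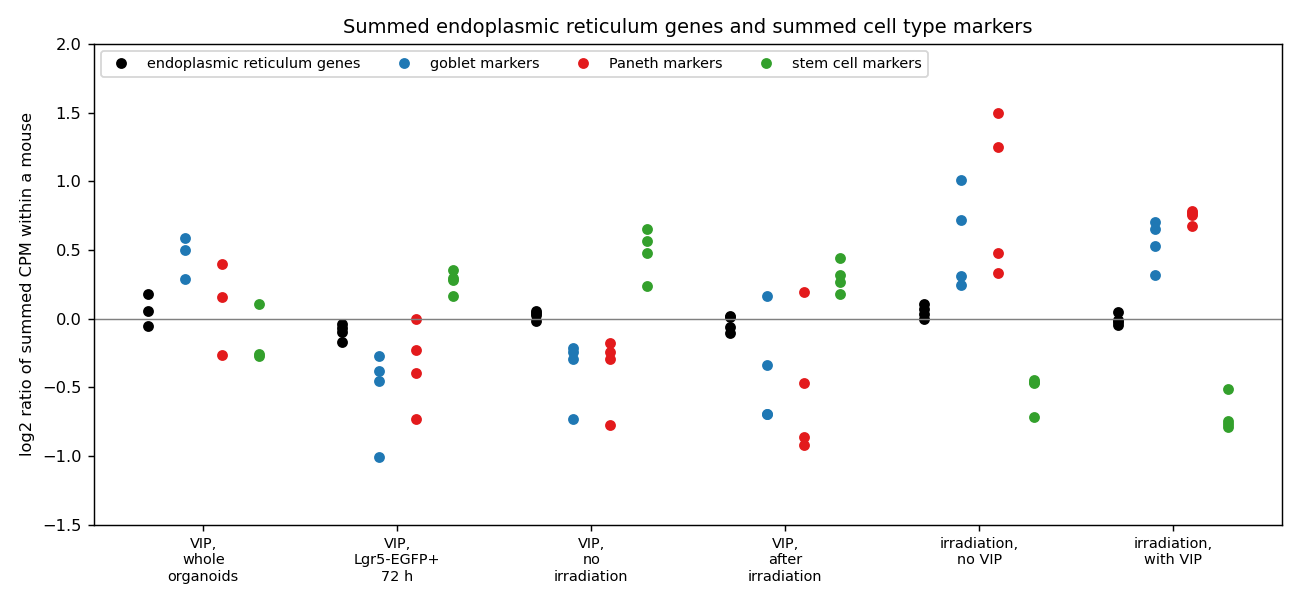
Log2 ratio, within a mouse, of the summed CPM (vertical axis) of the ER genes (black) and of goblet (blue), Paneth (red) and stem cell (green) markers in 6 comparisons, 1 point a mouse. The black points stay between −0.17 and 0.18, while Paneth markers reach 1.5 with irradiation.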

How the data were processed

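RNA of 3 experiments on mouse jejunal organoids was sequenced as barcoded 3′ libraries with UMIs. The Drop-seq pipeline, with GRCm38 and GENCODE M25, gave UMI counts, which the authors deposited raw, and all columns were matched to samples. The members and gene lists were chosen with earlier results of these data known.

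Libraries of the same culture were added up. The test was edgeR 4.0.16's quasi-likelihood test under R 4.3.3, with TMM factors, filterByExpr by group and the mouse as a block, adjusted over all genes tested, with a threshold of 0.05. CPM of samples use TMM factors, and log2 CPM a prior count of 2. Same mouse numbers in the labels mean the same organoid line. Deviations of genes from group means correlated at 0.268 to 0.634 between samples of 1 mouse in whole organoids, 0.0292 to 0.212 in Lgr5-EGFP+ cells and −0.0707 to 0.158 in the irradiation experiment. Between different mice the ranges were −0.545 to 0.334, −0.144 to 0.15 and −0.204 to 0.205. The ranges overlapped in each experiment, so that the pairing is taken from the labels. In the irradiation experiment the highest value within 1 mouse (0.158) lay under that between different mice (0.205). With the mouse as a block, the p-values set a treatment difference against the spread left after mouse and group effects. The quasi-likelihood test estimates this spread partly from other genes. In the irradiation experiment all groups shared 1 estimate, so it is not the spread of a single comparison between lines.

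In each comparison the members past the threshold, or else the 3 with the smallest p, were named with their statistics, beside Xbp1, Hspa5 and Atf4. Others were chosen after their values were seen. From each further list, at most 4 called genes were named. Alternatives were DESeq2 1.42.0, RLE factors, library size alone, other filters, no block, leaving out each mouse number, single technical replicate libraries and fits of 2 groups. The fits were also run on simulated counts. These had no differences between mice and planted changes larger than nearly all of those of the members, so they do not cover changes as small as most reported here. Positions come from GENCODE M21 (GRCm38).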

Additional observations from a re-analysis of the deposited data

Results flagged for a closer look

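A sample far from the others was found for a named member in 5 of 65 groups of 4 samples, where chance flags about 1 in 20. Atf4 was at 196 CPM in VIP-treated mouse 2 of the Lgr5-EGFP+ cells, with the next sample at 105 CPM. Herpud1 was at 174 CPM in mouse 3 without VIP or irradiation, with the next at 150 CPM. P4hb was at 461 CPM in mouse 2 with VIP and irradiation, under the next at 510 CPM. Xbp1 was at 331 CPM in irradiated mouse 3 without VIP, with the next at 255 CPM, and at 261 CPM in VIP-treated mouse 4 without irradiation, under the next at 323 CPM.

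Derl1 had VIP differences of opposite sign without and with irradiation in every mouse. The interaction was −0.64 (edgeR, adjusted p = 0.615), so that it failed the correction. For Hspa5, Dnajb11, Canx and Pdia6 the signs were opposite between the whole organoid and Lgr5-EGFP+ experiments in every mouse, although some of the differences lay near 0. Their interactions with the compartment were −0.37, −0.46, 0.30 and −0.30, and none was called (adjusted p from 0.688 to 0.849).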

How the results depend on the processing

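The number of members called in whole organoids, 1 as reported, was 0 with DESeq2, 3 with all genes of at least 1 count (Dnajc10, Edem1 and Kdelr3), 0 without the mouse as a block, 6 with the first technical replicate libraries alone and 6 without the second library of VIP-treated mouse 3. It ranged from 0 to 9 when each mouse was left out, 0 without mouse 2 and 9 without mouse 3. Over all genes, 614 calls became 300 with DESeq2, 979 with all genes of at least 1 count, 99 without the block, 1261 without that library, 363 without mouse 2, 377 without mouse 1 and 1668 without mouse 3. Dnajc10 lost its call with DESeq2 (adjusted p = 0.140), without the block (0.325), without mouse 2 (0.0694) and with the first libraries alone (0.0587). With irradiation in VIP-treated cells, 1 member (Calr) was called in a fit of the 2 groups alone. Every other count of members called stayed at 0, also without the block. Over all genes, DESeq2 called 2 in place of 6 in Lgr5-EGFP+ cells, 12 in place of 22 with VIP after irradiation, and 281 and 489 in place of 445 and 776 with irradiation without and with VIP.

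Signs turned only for values near 0 or on 1 mouse number left out. With each mouse left out, Xbp1 under VIP ranged from −0.0659 to 0.0541 without irradiation and from −0.0400 to 0.129 after it, and its interaction from −0.0242 to 0.14. Atf4 with irradiation alone became 0.00971 with at least 10 counts in every sample, 0.00159 in a fit of the 2 groups, and −0.0211 to 0.0154 with each mouse left out. Its interaction with the compartment ranged from −0.27 (without mouse 2 of both experiments) to 0.457. There each number left out removed a mouse from each experiment. The causes were not tested. Trib3 and Derl3 rest on few UMIs a sample in the sorted cells, and intervals were widest for the interaction with the compartment, with a median standard error of 0.201.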
